A study of Aloe vera with 7 samples.

Results

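Among the genes of plant defence and lipid transfer that the arrays measured in Aloe vera, 3 with a higher signal in root than in leaf are described here: PDF1.2, PR-1-LIKE and AT4G12500. They were picked by their names in the probe annotation, each from the only probe set that lists that name alone, and they are 3 of the 18810 probe sets tested and of the 11100 that carry 1 gene. They were proposed because of their root against leaf difference, so that difference is given as a description and no p-value is printed for it. Whether each passed the cutoff over all probe sets is stated below, and nothing is read from it.

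PDF1.2 encodes a plant defensin, a small cysteine-rich secreted protein that acts against fungi, and in Arabidopsis it is a standard marker of the combined jasmonate and ethylene response. PR-1-LIKE belongs with the pathogenesis-related protein PR-1, itself the classical marker of salicylate signalling in Arabidopsis, to the CAP family of secreted proteins. AT4G12500 belongs to the lipid transfer protein family, secreted proteins whose cysteine bridges hold a cavity for lipids, and its locus code places it in a tandem group with AZI1 and EARLI1, known in Arabidopsis for roles in defence priming. These roles come from Arabidopsis and were not measured in Aloe.

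The study hybridised total RNA of root (3 arrays, replicates 1 to 3) and of leaf (3 arrays, replicates 1 to 3) to ATH1 arrays, and 1 further array received genomic DNA, not used here because its deposited column is empty. The labels give no genotype, cultivar or treatment, and no age beyond mature. They describe a single mature plant bought from a garden centre and kept indoors, and leave unsaid whether replicates are separate plants. The spread between arrays may thus be technical or lie within that plant. Standard errors and p-values may then not speak for other plants. ATH1 probes match Arabidopsis thaliana, so a value tells how strongly Aloe RNA bound the probes named for an Arabidopsis gene, and the Aloe transcript behind it is not identified. Every value is a log2 signal relative to the median of the 6 RNA arrays for that probe set, so differences between tissues can be read and signal levels or detection above background cannot. In bulk tissue, fewer cells of a type and less RNA per cell cannot be told apart.

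The tissue labels were set against marker genes, which were listed with earlier results of these data known and so give no independent check. Of 19 leaf markers 14 were measured, and all 14 had a lower mean in root, with 5 of them called (ndhA, psbZ, psbH, psbC and psbB) at an adjusted p under 0.05 in limma. Over all 18810 probe sets, 8550 had a lower mean in root and 0.276% were called lower. The called markers are all plastid genes. The nuclear markers LHCB4.2, RCA, LHCB4.1 and PRK were not called (adjusted p = 0.773, 0.493, 0.359 and 0.408 in limma). The leaf label thus rests mainly on plastid transcripts, whereas the 3 genes described here are nuclear. Averaged over the 14, root arrays stood at -1.21, -1.12 and -0.81 log2 and leaf arrays at 1.56, 0.84 and 1.79 log2. Of 21 root markers 2 were measured, the root hair expansins EXPA7 and EXPA18, at 0.084 ± 0.28 and 0.082 ± 0.24 log2 (root minus leaf, SE), so the root label has little marker evidence on these arrays. The control for ribosomal RNA of the large subunit was at -4.72 log2 in leaf replicate 2 and between -0.90 and 1.08 log2 elsewhere, and the member differences without that array are given below. Precision is limited by the few arrays: over all probe sets the standard error of a difference had a median of 0.26 log2.

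The 3 genes were higher in root by 0.86 to 2.35 log2. For AT4G12500 the root arrays (replicates 1 to 3) stood at 1.72, 1.75 and 0.76 log2, against -0.76, -0.79 and -1.27 log2 in leaf. Root replicates 1 and 2 were close together and replicate 3 lower, yet the lowest root array was 1.53 log2 above the highest leaf array. The means were 1.41 ± 0.56 log2 in root and -0.94 ± 0.29 log2 in leaf (SD, n = 3 each), a difference of 2.35 ± 0.32 log2 (SE), or 5.12-fold. By this difference AT4G12500 ranked 3 of the 11100 single-gene probe sets on the root side.

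For PDF1.2 the root arrays stood at 0.71, 0.049 and 1.22 log2, and the leaf arrays at -0.82, -0.89 and -0.049 log2. The tissues did not overlap, but root replicate 2 and leaf replicate 3 lay 0.098 log2 apart. The means were 0.66 ± 0.59 log2 in root and -0.59 ± 0.47 log2 in leaf (SD, n = 3 each), a difference of 1.24 ± 0.36 log2 (SE), or 2.37-fold, at rank 60 of the single-gene probe sets. Replicate 3 was the highest array for PDF1.2 in both tissues. The labelling spike-in controls were also highest on replicate 3 of each tissue: averaged over 24 control probe sets they stood at -1.11, -0.11 and 0.73 log2 on root replicates 1 to 3 and at -0.011, -0.21 and 0.97 log2 on leaf replicates 1 to 3. Their part in the values of PDF1.2 was not tested.

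For PR-1-LIKE the root arrays stood at 0.19, 1.02 and 0.60 log2, against -0.25, -0.19 and -0.31 log2 in leaf. The leaf arrays were tightly grouped, with an SD of 0.060 log2 around a mean of -0.25 log2, while the root arrays spread with an SD of 0.41 log2 around 0.61 log2 (n = 3 each). The difference was 0.86 ± 0.25 log2 (SE), or 1.82-fold, at rank 238 of the single-gene probe sets, and the gap between the tissues was 0.39 log2.

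**Figure D1:**
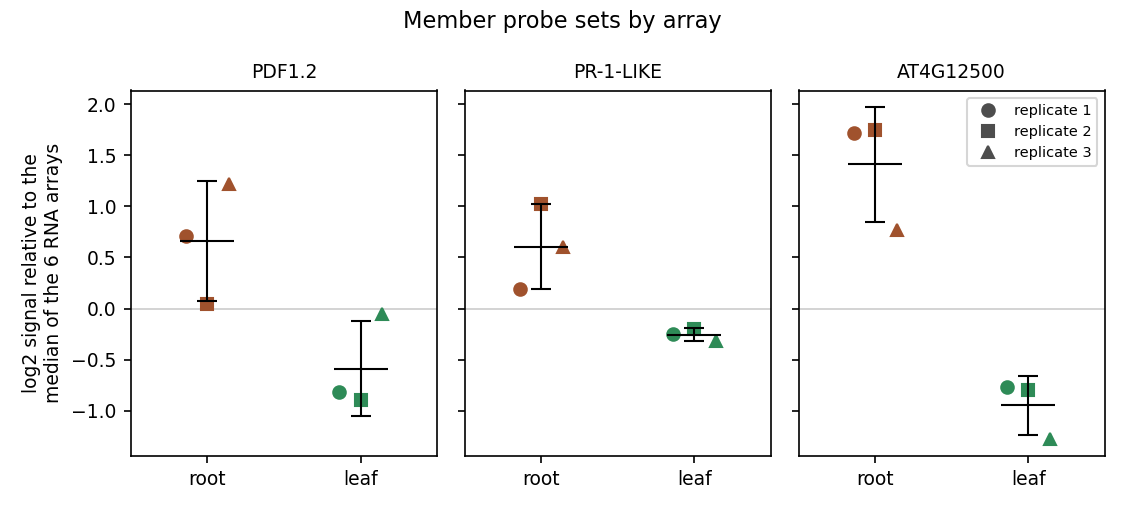
Log2 signal of the 3 genes relative to the median of the 6 RNA arrays (vertical axis), for root and leaf arrays. Symbols are replicates, and bars give the mean and SD of 3 arrays. Root lies above leaf in every panel, with a gap of 1.53 log2 for AT4G12500, 0.39 log2 for PR-1-LIKE and 0.098 log2 for PDF1.2.

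The 3 genes did not share an order of arrays within root. PDF1.2 was highest in root replicate 3 and lowest in replicate 2, PR-1-LIKE was highest in replicate 2, and AT4G12500 was lowest in replicate 3. When root and leaf arrays of the same number were subtracted, PDF1.2 was higher in root by 1.53, 0.94 and 1.27 log2 for numbers 1, 2 and 3. The same subtraction gave 0.45, 1.22 and 0.92 log2 for PR-1-LIKE and 2.49, 2.54 and 2.04 log2 for AT4G12500. Every root array of these genes lay above every leaf array, so no pairing could put leaf above root.

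Across all 18810 probe sets, limma called 12 higher in root (0.0638%) and 52 lower (0.276%). AT4G12500 was among the 12, and PDF1.2 and PR-1-LIKE were not. The call of AT4G12500 was lost in all but 1 of the 6 fits that drop an array, the one without root replicate 3. Every root array lay above every leaf array in 1556 probe sets (8.27%), the 3 genes included. This contrast chose the 3 genes, so nothing is read from these counts or from their calls.

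With 1 array left out, the difference ranged over 2.19 to 2.68 log2 for AT4G12500, 0.97 to 1.55 log2 for PDF1.2 and 0.65 to 1.07 log2 for PR-1-LIKE. PDF1.2 was lowest without root replicate 3 and PR-1-LIKE without root replicate 2, in each case the array with that gene's highest value. Without leaf replicate 2, the differences were 2.43, 1.09 and 0.89 log2 for AT4G12500, PDF1.2 and PR-1-LIKE.

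**Figure D2:**
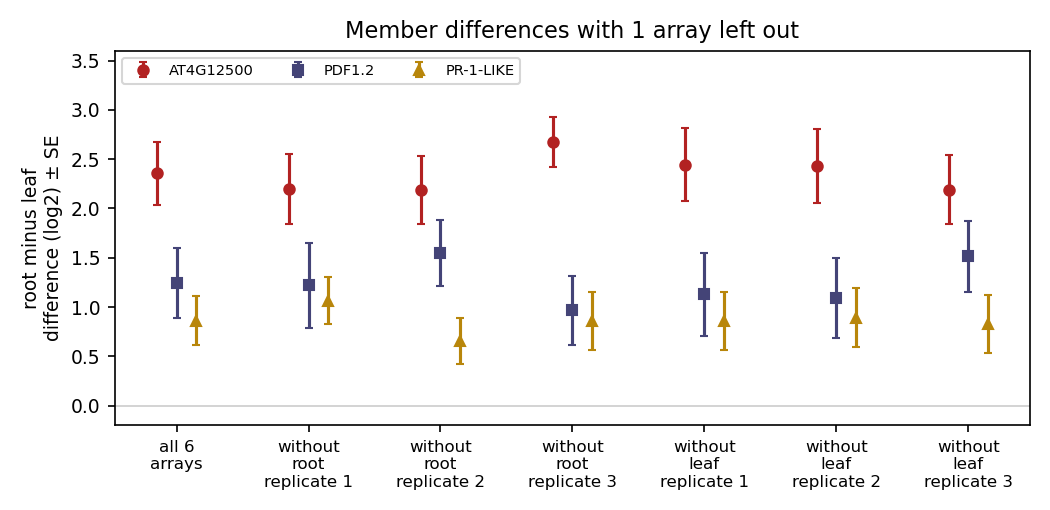
Root minus leaf difference in log2 (vertical axis, bars are SE) of AT4G12500, PDF1.2 and PR-1-LIKE with all 6 RNA arrays and with each array left out in turn (horizontal axis). AT4G12500 stays between 2.19 and 2.68 log2, while PDF1.2 moves between 0.97 and 1.55 log2.

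The rounding of the deposited values may keep a trace of signal strength if they were held as single-precision numbers, which are stored in finer steps when smaller. For each probe set the coarsest step that its values met was taken, so some may stand on too coarse a step by coincidence. Differences between arrays for PR-1-LIKE lay on a step of 2.38e-07, as in 32.0% of the probe sets tested, and those for PDF1.2 and AT4G12500 lay on the coarser step of 4.77e-07, as in 51.2%, counting a value as on a step when it lay within 0.25 of it. How the values were stored before deposit is not given in the sources used here, so the step describes the values and sets no signal level.

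The families of the 3 genes were then followed through a list of 172 Arabidopsis loci, of which 92 were measured under their own name, on 93 probe sets. Besides the 3 genes this left 90 probe sets, 43 with a higher mean in root and 47 with a lower one. Over all 18810 probe sets tested, 10260 had a higher mean in root and 8550 a lower one. The direction counts of each list below are to be read beside that split. The median difference between root and leaf was -0.012 log2 for the 90, against 0.034 log2 over all probe sets tested. In limma 0 of the 90 passed in either direction after adjustment over all probe sets. At an unadjusted p under 0.05 there were 3 on the root side and 3 on the leaf side, where the shares over all probe sets were 4.68% and 4.88%. Root and leaf did not overlap in 6 of the 90 with root above (6.67%) and in 6 with leaf above (6.67%), against 8.27% and 6.87% over all probe sets.

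**Figure D3:**
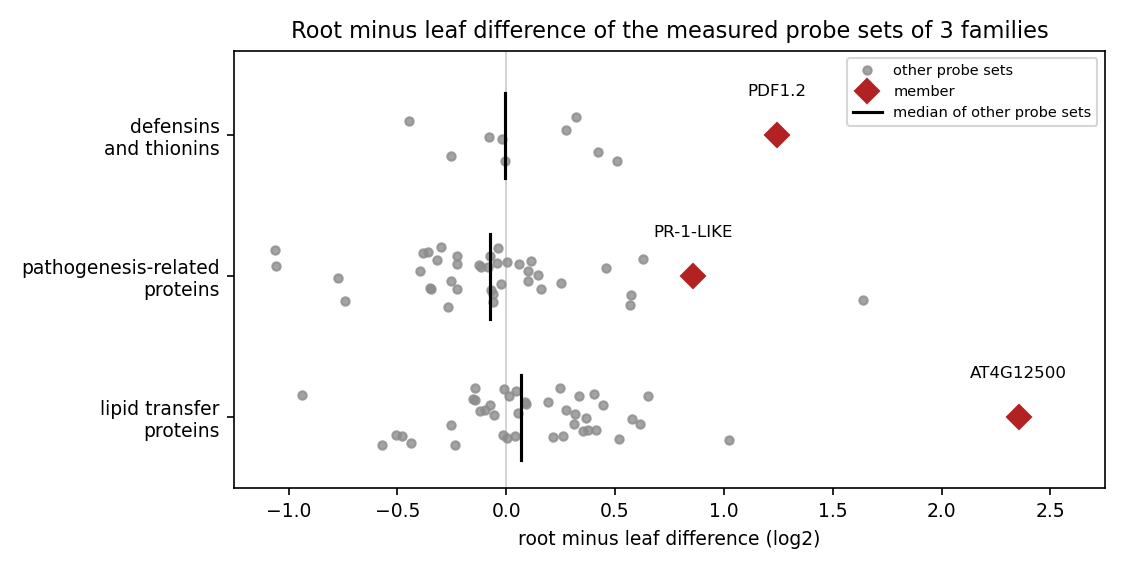
Root minus leaf difference in log2 (horizontal axis) for each measured probe set of the defensin and thionin, pathogenesis-related and lipid transfer lists. Diamonds are PDF1.2, PR-1-LIKE and AT4G12500, grey points the other 9, 39 and 42 probe sets, and vertical strokes their medians. The medians lie at -0.0036, -0.075 and 0.070 log2.

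Defensins and thionins, both small antimicrobial peptides, were measured for 10 of 16 loci. The 9 besides PDF1.2 had a median difference of -0.0036 log2 and a range of -0.45 to 0.51 log2, with 0 called in limma and 0 at an unadjusted p under 0.05. PDF1.2b, a close copy of PDF1.2 in Arabidopsis, stood at 0.38, -0.036 and -0.085 log2 in root, against 0.036, -0.12 and 0.35 log2 in leaf. Its tissues overlapped and its difference was -0.0036 ± 0.23 log2 (adjusted p = 0.997), but its probe set has the suffix for probes shared between sequences, so it may not report a single gene.

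The thionin THI2.1, a jasmonate-responsive peptide gene in Arabidopsis, had the highest value among the 9 at 0.51 ± 0.23 log2 (adjusted p = 0.554), with overlapping tissues. LCR68, a defensin also known as PDF2.3, stood at 0.31, 0.12 and 0.30 log2 in root, against -0.30, -0.12 and -0.12 log2 in leaf, with every root array above leaf and an adjusted p of 0.553. The defensin gene PDF1.4 had the reverse arrangement, at -0.34, -0.099 and -0.17 log2 in root and 0.099, 0.38 and 0.26 log2 in leaf (difference -0.45 ± 0.20 log2, adjusted p = 0.531). LCR72 and PDF2.1 stood at 0.32 and 0.27 log2, and PDF2.5, LCR66 and THI2.2 at -0.021, -0.080 and -0.25 log2, all with overlapping tissues.

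CAP proteins, the family of PR-1 and PR-1-LIKE, were measured for 19 of 22 loci. The 18 besides PR-1-LIKE had a median of -0.16 log2, with 6 higher and 12 lower in mean in root, and 0 were called. Root and leaf did not overlap in 1 of the 18 with root above (5.56%) and in 3 with leaf above (16.7%). Over all probe sets these shares were 8.27% and 6.87%. PR-1-LIKE, locus AT2G19990, has 2 family members under neighbouring locus codes, and both stood on the other side. AT2G19980 stood at -0.084, -0.24 and -0.48 log2 in root, against 0.50, 0.94 and 0.084 log2 in leaf, and every root array lay below every leaf array. Its difference was -0.77 ± 0.27 log2, with an unadjusted p of 0.0198 and an adjusted p of 0.403. AT2G19970 stood at -0.043, -0.13 and -0.0095 log2 in root, against 0.36, 0.13 and 0.0095 log2 in leaf. Every root array lay below every leaf array, by a gap of 0.019 log2. The difference of AT2G19970 was -0.23 ± 0.19 log2 (adjusted p = 0.794). Whether either differs from PR-1-LIKE was not tested.

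Of the CAP proteins, AT4G25790 had the largest difference, above that of PR-1-LIKE itself. Its root arrays stood at 0.72, 0.35 and 2.04 log2, against -0.35, -0.71 and -0.74 log2 in leaf, with no overlap. The difference was 1.64 ± 0.42 log2 (3.11-fold, adjusted p = 0.226, range over the alternatives 0.165 to 0.497), and it was 1.14 log2 without root replicate 3, the array with its highest value. AT4G25780, under the adjacent locus code, stood at 0.25 ± 0.24 log2 with overlapping tissues. The other 14 CAP genes lay between -0.39 and 0.15 log2: AT3G19690, AT5G02730, AT3G09590 and AT1G50060 on the root side, and AT4G30320, AT5G26130, AT4G33720, AT4G33710, AT5G66590, AT4G33730, AT4G31470, AT1G50050, AT1G01310 and AT4G07820 on the leaf side. Of these 14, only AT5G66590 had tissues that did not overlap, with leaf above root by a gap of 0.061 log2 (difference -0.27 ± 0.19 log2, adjusted p = 0.745).

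**Figure D4:**
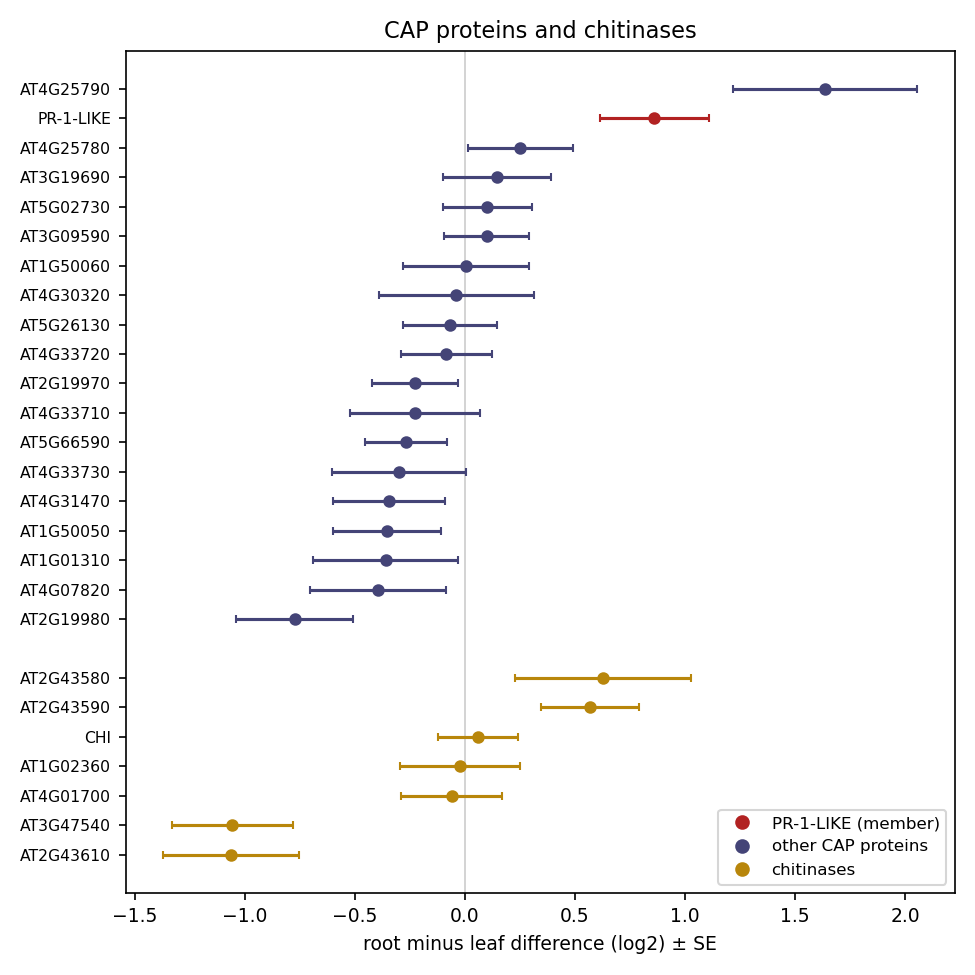
Root minus leaf difference in log2 with its SE (horizontal axis) for 19 CAP genes, with PR-1-LIKE in red, and 7 chitinase genes. AT4G25790 at 1.64 log2 and PR-1-LIKE at 0.86 log2 lie farthest to the root side, and the chitinases AT2G43610 and AT3G47540, both at -1.06 log2, farthest to the leaf side.

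Chitinases, which cut the chitin of fungal walls, were measured for 7 loci, and the glucanases of the list for 0. None was called. AT2G43610 stood at -0.12, -0.38 and -0.61 log2 in root, against 0.74, 1.22 and 0.12 log2 in leaf (difference -1.06 ± 0.31 log2, adjusted p = 0.302). AT3G47540 stood at -0.20, -0.36 and -0.72 log2 in root, against 0.61, 1.07 and 0.20 log2 in leaf (difference -1.06 ± 0.28 log2, adjusted p = 0.240). In both genes every root array was below every leaf array, and the arrays followed the same order, with leaf replicate 2 highest and root replicate 3 lowest.

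AT2G43590, close in locus code to AT2G43610, had the opposite arrangement, with 0.31, 0.060 and 0.30 log2 in root and -0.62, -0.34 and -0.060 log2 in leaf (difference 0.57 ± 0.22 log2, adjusted p = 0.462). AT2G43580 had a mean difference of 0.63 ± 0.40 log2 with overlapping tissues, and CHI, AT1G02360 and AT4G01700 stood at 0.059, -0.022 and -0.061 log2.

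Thaumatin-like proteins, the family of PR-5, were measured for 14 of 20 loci, with a median of -0.095 log2, 4 higher and 10 lower in mean in root, and 0 called. AT1G75050 had every root array above leaf, with a difference of 0.46 ± 0.22 log2 (adjusted p = 0.579). AT4G38670 stood at 0.57 ± 0.25 log2 and AT5G02140 at -0.74 ± 0.35 log2, the extremes of the group, both with overlapping tissues (adjusted p = 0.539 and 0.575). The osmotin-like gene OSM34 stood at -0.043 ± 0.26 log2. AT1G20030, AT2G24810, AT5G40020, AT4G36010, AT4G38660, AT5G24620, AT1G19320, AT4G36000, AT1G75800 and AT1G73620 lay between -0.38 and 0.16 log2.

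Lipid transfer proteins were measured for 42 of 99 loci. The 42 probe sets besides AT4G12500 had a median of 0.070 log2, with 26 higher and 16 lower in mean in root. Over all probe sets 10260 were higher and 8550 lower. In limma 0 of the 42 were called, with 1 at an unadjusted p under 0.05. AT4G12500 belongs to the hybrid proline-rich type, whose lipid transfer domain follows a proline-rich stretch, and 10 other genes of that type were measured, with a median of 0.17 log2.

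Under locus codes next to AT4G12500, AT4G12490 stood at -0.087, 0.32 and 0.097 log2 in root, against -0.76, -0.092 and 0.087 log2 in leaf. AT4G12530 stood at -0.19, -0.33 and 0.19 log2 in root, against 0.80, -0.20 and 0.78 log2 in leaf. Both overlapped between the tissues, with differences of 0.37 ± 0.27 and -0.57 ± 0.32 log2 (adjusted p = 0.761 and 0.651). AT4G12360, of a nearby code, stood at -0.44 ± 0.31 log2 (adjusted p = 0.749). Whether these differ from AT4G12500 was not tested.

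**Figure D5:**
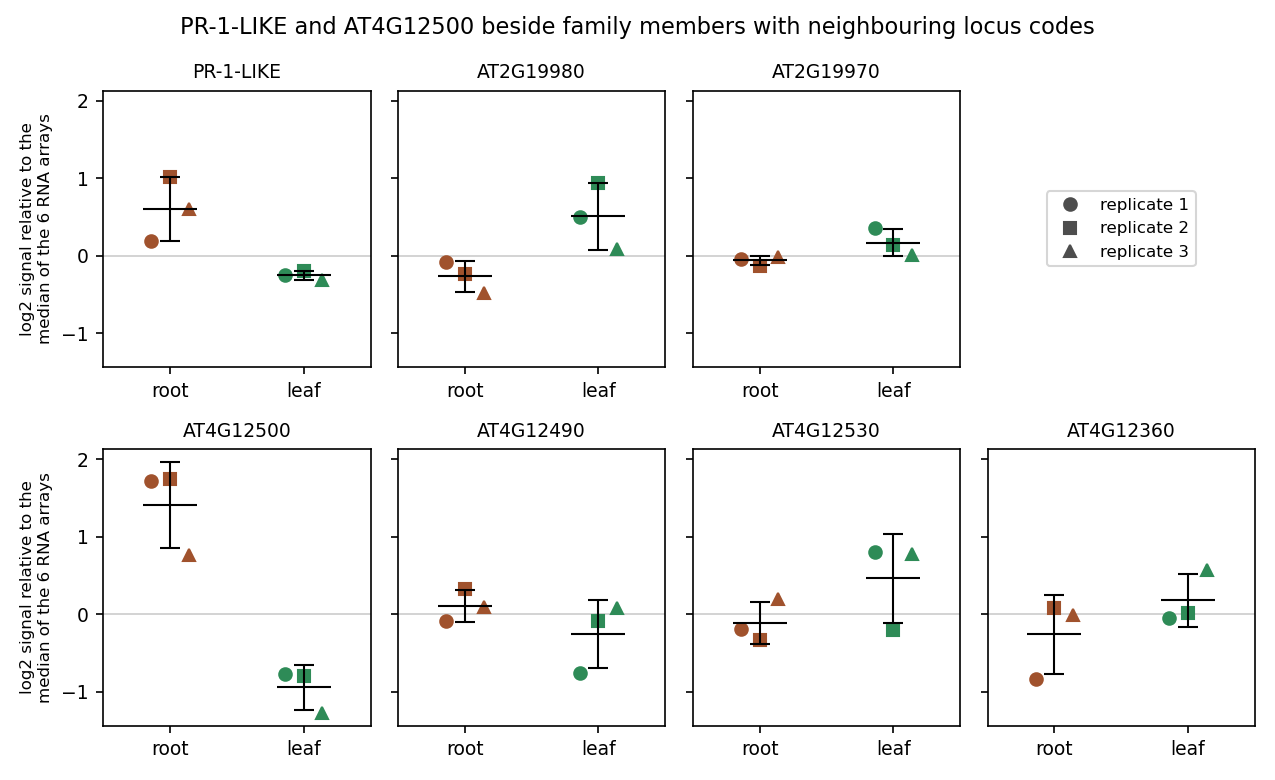
Log2 signal relative to the median of the 6 RNA arrays (vertical axis) for PR-1-LIKE with AT2G19980 and AT2G19970, and for AT4G12500 with AT4G12490, AT4G12530 and AT4G12360, on root and leaf arrays. Symbols are replicates and bars the mean and SD of 3 arrays. AT2G19980 has root below leaf (-0.77 log2), opposite to PR-1-LIKE (0.86 log2).

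Of the hybrid proline-rich type, AT1G62510 came nearest to AT4G12500. It stood at 0.97, 0.13 and 0.48 log2 in root, against -0.13, -0.73 and -0.63 log2 in leaf, with no overlap and a difference of 1.03 ± 0.28 log2 (2.04-fold, unadjusted p = 0.00707, adjusted p = 0.272, range over the alternatives 0.103 to 0.546). AT1G12100, AT4G22610, AT1G62500 and AT2G45180 lay between 0.092 and 0.38 log2, and AT4G22490, AT4G22460 and AT2G10940 between -0.076 and -0.013 log2, each with overlapping tissues.

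Among the remaining lipid transfer genes, AT3G53980 had every root array above leaf, at 0.45 ± 0.24 log2 (adjusted p = 0.625). AT3G22620, AT2G15325, AT3G52130 and AT1G70250 stood at 0.65, 0.62, 0.58 and 0.52 log2 with overlapping tissues, and a second probe set of AT1G70250 at 0.26 log2. On the leaf side were AT5G62080 at -0.94 ± 0.44 log2 (adjusted p = 0.577), AT2G27130 at -0.51 log2 and AT5G38160 at -0.48 log2. The gene AT5G48490, a relative of the systemic resistance gene DIR1, stood at -0.12 ± 0.20 log2. AT5G55450, AT3G18280, AT2G48130, AT3G22570, AT5G38195, AT5G07230, AT5G52160, AT5G38170, AT1G62790, AT5G09370, AT1G48750, AT1G05450, AT2G44300, AT5G13900, AT1G73780, AT1G36150, AT2G18370, AT5G01870, AT4G08530, AT2G37870 and AT1G66850 lay between -0.25 and 0.41 log2.

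The hormone and immune pathways in which PDF1.2 and PR-1 serve as markers were measured for 6 of 143 listed loci, with 0 called in limma and 0 at an unadjusted p under 0.05. From the jasmonate and ethylene list, MYC4, a transcription factor of the jasmonate response, stood at 0.57 ± 0.34 log2 (adjusted p = 0.689). OPCL1, a ligase of jasmonate synthesis, stood at 0.33 ± 0.22 log2 and EIN3, the transcription factor of the ethylene response, at 0.044 ± 0.43 log2. SAG101, a partner of EDS1 in immune signalling, stood at -0.020 ± 0.23 log2, and the only salicylate list gene measured was this one. The receptor gene EFR and the kinase gene BIK1 of pattern-triggered immunity stood at -0.29 ± 0.51 and 0.0098 ± 0.24 log2. All 6 overlapped between the tissues, and the other 137 loci were not measured under their own name.

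The genes with the most similar profile over the 6 RNA arrays were taken by Pearson correlation among the 11100 single-gene probe sets, as a description over 6 points that fall into the 2 tissues. For AT4G12500 they were AT5G46620, AT4G16140, AT3G21080, AT1G18310 and AT5G41960, with correlations of 0.989 to 0.994. AT4G16140 had a difference of 1.34 log2, the largest of these 5, which ranged down to 0.53 log2. For PDF1.2 they were AT4G03970, AT5G52770, AT3G44500, PRA1.H and AT2G05370, at 0.985 to 0.994, with differences of 0.35 to 0.91 log2. For PR-1-LIKE they were AT3G26670, AT5G35090, AT5G03120, AT1G56210 and AT1G51540, at 0.977 to 0.995, with differences of 0.32 to 0.57 log2.

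The 3 sets of 5 share no gene, and none of the 15 belongs to the defence or lipid transfer lists. The lists of the 3 families hold only 93 of the 11100 single-gene probe sets, so nothing is read from this absence. Profiles this alike were common on so few arrays: 57 single-gene probe sets correlated above 0.95 with AT4G12500, 41 with PDF1.2 and 34 with PR-1-LIKE.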

How the data were processed

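The deposited table holds log2 values made by the authors with RMA, per the submitters' processing notes (background correction, quantile normalization and summary per probe set; version and log base not given in the sources used here). Each probe set had been centred on its median over the 6 RNA arrays, as seen from the values. The 64 control probe sets were left out, and 18810 remained: 11100 with 1 gene in the platform's annotation, 350 with several and 7360 with none listed, which stay unnamed. No coordinates or sequences were used.

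In R 4.3.3, limma 3.58.1 (lmFit, then eBayes) compared 3 root with 3 leaf arrays without covariates, with Benjamini-Hochberg adjustment over all 18810 and calls at an adjusted p under 0.05. The procedure was tested on simulated data. Summaries used Python 3.11.15, pandas 2.3.3 and NumPy 2.4.6.

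Members and lists were chosen with earlier results of these data known. Lists name Arabidopsis loci, matched case-sensitively by locus or symbol to single-gene probe sets. Named are the members, every measured gene of the 3 families, in each pathway list the called genes and the 3 with the largest absolute difference, and the 5 profiles most correlated with each member.

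Deviations of equally numbered root and leaf arrays correlated by 0.12, 0.37 and 0.25 over probe sets, and those of unequal number by -0.29 to 0.064. The replicate block, an alternative fit, therefore took the numbers to pair the arrays, though no label gives the meaning of a number. For number 1 the margin is small. The standard errors, p-values and calls in the results come from the fit without pairing, unless the block is named. Alternatives were the replicate block, quantile normalization, array centring, array weights, trend and robust fitting, probe sets without a shared-sequence suffix, and each array left out. A filter on dim probe sets needs signal levels and was not run.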

Additional observations from a re-analysis of the deposited data

How the results depend on the processing

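The differences of AT4G12500, PDF1.2 and PR-1-LIKE kept their direction and moved by less than 1 SD between replicates under every alternative run. With 1 array left out neither could come out otherwise, so neither shows stability there. The direction could not turn, since root and leaf arrays of these genes did not overlap. Leaving out 1 of 3 arrays also cannot move a difference by 1 SD between replicates, pooled over the tissues, whatever the values. The differences ranged over 2.34 to 2.45, 1.23 to 1.34 and 0.74 to 0.86 log2 with all 6 arrays. With 1 array left out they ranged over 2.19 to 2.68, 0.97 to 1.55 and 0.65 to 1.07 log2. With replicate as a block (the paired fit) the differences are the same by construction, at 2.35, 1.24 and 0.86 log2, and their standard errors were 0.21, 0.22 and 0.23 log2. The block changed no call among these 3 genes and the family and pathway genes. The counts over all probe sets were 9 higher in root and 53 higher in leaf under the block, against 12 and 52 without it. Trend and robust fitting gave 40 and 115, and the cause was not tested. With 1 array left out, on fewer samples, the counts ranged from 0 to 5 higher in root and from 7 to 28 higher in leaf. The call of AT4G12500 held under the 6 alternatives that keep all arrays and, of the 6 fits that drop an array, in 1. Since the same contrast chose AT4G12500, its call is no test of the gene. Of the 96 other family and pathway probe sets, 0 were called under any of the 12 alternatives in limma. The sign of the difference changed in 89 of 1151 values, spread over 36 of these probe sets. List medians lay near 0 and several turned sign. With 1 array left out, the median of the 3 families ranged from -0.033 to 0.036 log2 (highest without leaf replicate 3), that of defensins and thionins from -0.026 to 0.13 log2 (highest without leaf replicate 3), and that of lipid transfer genes from -0.022 to 0.20 log2 (lowest without root replicate 2). The hybrid proline-rich median ranged from 0.0018 (without root replicate 2) to 0.20 log2, that of chitinases from -0.12 to 0.066 log2 (without leaf replicates 3 and 2) and that of thaumatin-like genes from -0.19 to 0.015 log2 (without root replicate 1 and leaf replicate 3). CAP genes stayed between -0.27 and -0.062 log2, and all probe sets between 0.024 and 0.045 log2. With array weights the medians of the 3 families, of defensins and thionins and of chitinases were 0.0070, 0.070 and 0.042 log2, and without shared-sequence probe sets that of defensins and thionins was 0.13 log2. With no signal levels deposited, what low signal over background limits is not known here.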
